A study of Drosophila melanogaster with 4 samples.

Results

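The muscle fibre nuclei of the adult male abdomen were compared between flies that carried *UAS-Tsc1* and *UAS-Tsc2* under the oenocyte driver (*oenots>tsc1,tsc2*) and flies that carried *UAS-2xEGFP* in their place (*oenots>EGFP*, the control). The nuclei were chosen by their own counts: a nucleus was taken as muscle fibre when its unique molecular identifiers (UMIs, each standing for 1 captured RNA molecule) of *Mhc*, *sls*, *bt*, *up*, *Scp1*, *Act79B*, *TpnC41C* and *Strn-Mlck* summed to 3 or more. That sum also had to exceed the nucleus's summed UMIs of 6 cuticle genes and its UMIs of the adipose lipoprotein gene *apolpp*. By this rule 1562 of 25141 nuclei were muscle fibre, and the 15 genes of the rule were left out of every test.

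All flies were *w1118* males with *PromE-Gal4* and *tub-Gal80ts*, raised at 18 °C on standard food and held at 29 °C for 4 days so that the transgenes came on in the adult. Each library pooled 40 abdomens from which the intestines and reproductive organs had been removed, and each genotype had 2 libraries, called here control 1, control 2, tsc 1 and tsc 2. The driver targets oenocytes, so the muscle itself was not the tissue meant to carry the transgenes, and the study notes that it is also active in the male accessory glands. The rows of *Tsc1*, of *gig* (Tsc2) and of EGFP were not analysed here, so the transgenes themselves were not checked. The libraries of each genotype were deposited in a table of their own, so a difference between genotypes and a difference between the preparations or processing of those tables cannot be told apart.

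Adult fly muscle fibres are syncytia in which repeated sarcomeres of myosin (*Mhc*), actin and the giant titin-like proteins Sls and Bt (projectin) generate force, and the troponin and tropomyosin genes make that force depend on calcium. Muscles also act as endocrine organs, and in the fly they release ligands such as Pvf1, a PDGF/VEGF relative, that act on other tissues. TSC1 and TSC2 form the complex that holds the kinase TOR in check, and oenocytes are liver-like cells that make very long chain lipids. The comparison asks what reaches the muscle fibre when TOR signaling is lowered in another organ.

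The libraries held 423 muscle fibre nuclei in control 1, 396 in control 2, 504 in tsc 1 and 239 in tsc 2. Muscle fibre made up 5.86% of nuclei (95% Wilson interval 5.34 to 6.43) in control 1, 4.91% (4.46 to 5.40) in control 2, 6.64% (6.10 to 7.22) in tsc 1 and 10.5% (9.34 to 11.9) in tsc 2. Both *oenots>tsc1,tsc2* libraries thus lay above both controls, at 8.59% ± 2.76 against 5.39% ± 0.675 (SD, n = 2 each), and the exact permutation test over libraries gave p = 0.333, two-sided, the smallest p that 2 against 2 can give. After every nucleus was thinned to 200 UMIs before the rule was applied, the shares were 4.80%, 4.33%, 5.00% and 9.66% in the same order, so tsc 2 stood apart and tsc 1 lay close to the controls. The intervals cover counting error only. Library tsc 2 was also the smallest, with 2267 nuclei against 7213 to 8067 in the others.

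Muscle fibre nuclei carried 240031 UMIs in control 1, 237867 in control 2, 321556 in tsc 1 and 167407 in tsc 2. Their median depth was 479, 492, 525 and 550 UMIs per nucleus. The median number of UMIs of the 8 muscle genes per fibre nucleus was 18, 24, 14 and 30, well above the threshold in every library. The nuclei also held RNA of other tissues. UMIs of the 6 cuticle genes were present in 40.2%, 40.4%, 40.5% and 41.8% of fibre nuclei, and UMIs of *apolpp* in 10.2%, 10.1%, 10.3% and 10.0%. Just inside it, with exactly 3 muscle UMIs, lay 25, 27, 44 and 10 nuclei, and just outside, with 2 muscle UMIs and otherwise past the rule, lay 93, 116, 113 and 27. Of the 819 control fibre nuclei, 488 (59.6%) belonged to the authors' cluster 5, of whose nuclei the rule took 85.8%, 202 (24.7%) to cluster 3, and 129 were spread over 13 other clusters. A barcode shared between libraries was rare, with 15 to 77 shared barcodes per pair of libraries and 2 among fibre nuclei.

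The genes that chose the nuclei are given as a description. *Mhc*, the muscle myosin heavy chain, stood at 8636 CPM (counts per 1e6 UMIs, the share of a gene in the summed UMIs of the fibre nuclei of a library) in control 1, 10804 in control 2, 5504 in tsc 1 and 10537 in tsc 2. The level of *sls* was 13848, 15698, 9103 and 16887 CPM in the same order, that of *bt* 6237, 7479, 3959 and 7228 CPM, and that of the troponin T gene *up* 7332, 11208, 6826 and 11451 CPM. Tsc 1 was the lowest library for each of these, and tsc 2 lay inside or just above the control range.

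*Scp1*, which encodes a calcium-binding protein of the sarcoplasm, was at 11673 and 9228 CPM in the controls and at 5380 and 12335 CPM in the *oenots>tsc1,tsc2* libraries. The actin gene *Act79B* stood at 2191, 2384, 1577 and 3106 CPM, the troponin C gene *TpnC41C* at 3112, 2052, 1773 and 2425 CPM and the kinase gene *Strn-Mlck* at 1996, 2960, 1163 and 2569 CPM. In all 8 genes tsc 1 held the lowest value of the 4 libraries. Summed, the 8 genes took 55026 and 61812 CPM in the controls against 35285 in tsc 1 and 66538 in tsc 2, so the 2 *oenots>tsc1,tsc2* libraries lay on opposite sides of the controls. In the nuclei outside the rule the same sum was 965 to 2456 CPM. The mean ratio of *oenots>tsc1,tsc2* over control was -0.20 on the log2 scale, which turned to 0.19 without tsc 1 and to -0.73 without tsc 2. The 6 cuticle genes summed to 6999, 7820, 6310 and 9522 CPM in fibre nuclei, and to 9292, 6533, 7402 and 18553 CPM in the nuclei outside the rule. For *apolpp* the level was 1188 to 2148 CPM in fibre nuclei and 10771 to 19522 CPM outside the rule.

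**Figure D1:**
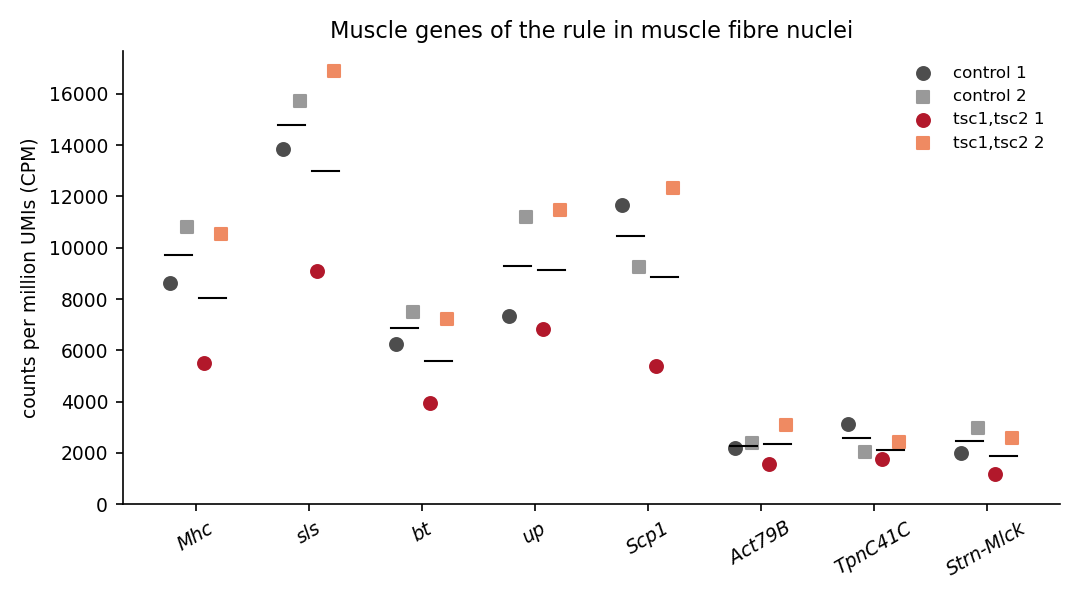
CPM of the 8 muscle genes of the rule in muscle fibre nuclei, with 1 point per library (circles for replicate 1, squares for replicate 2, grey for control, red for oenots>tsc1,tsc2) and a bar at the mean of each genotype. Tsc 1, the red circle, is the lowest point for every gene, and tsc 2 reaches 16887 CPM for sls, above both controls.

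Muscle fibre nuclei could be divided by *Scp1* in every library and both genotypes. Between 24.0% and 27.9% of fibre nuclei carried *Scp1* UMIs, namely 118 of 423, 95 of 396, 123 of 504 and 65 of 239, and the groups overlapped. In nuclei of the adipose class the share was 0.549% to 1.14%, and after thinning to 200 UMIs the shares were 22.5% to 25.9% of fibre nuclei against 0.493% to 0.882%. The adipose class held nuclei outside the fibre rule with at least 3 *apolpp* UMIs. These had to exceed the summed UMIs of the muscle, cuticle and oenocyte marker genes. *Scp1* counted toward the fibre rule and against the adipose class, so this contrast is partly set by the definitions. No fibre nucleus held a single *Scp1* UMI, the lowest count above 0 being 2. The median depth of fibre nuclei with *Scp1* was 521, 506, 521 and 571 UMIs, close to the 467, 485, 525 and 546 UMIs of those without. The split was chosen after its values were seen and is given without a test.

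Most *Act79B* and *TpnC41C* UMIs lay in the nuclei with *Scp1*, which is a description, since all 3 genes served to choose the nuclei. *Act79B* stood at 6848, 9295, 5888 and 11082 CPM in nuclei with *Scp1* and at 90.7, 172, 112 and 330 CPM in those without. *TpnC41C* stood at 9381, 7249, 6489 and 8213 CPM with *Scp1* and at 284, 388, 171 and 411 CPM without. A nucleus could enter through any of the 3 genes, and one without *Scp1* had to reach 3 UMIs from the others.

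Genes outside the rule divided the other way. *Act57B*, an actin gene of larval and adult abdominal muscle, was at 1193, 1474, 994 and 2452 CPM in nuclei with *Scp1* and at 6934, 7758, 5254 and 8367 CPM in those without, 3.41-fold to 5.81-fold higher. *Act87E*, a further actin gene, was 5.97-fold to 9.63-fold higher without *Scp1*, the calponin-like *Mp20* 4.17-fold to 7.57-fold higher and the troponin C gene *TpnC47D* 4.92-fold to 23.3-fold higher. These transcripts were thus higher without *Scp1* in all 4 libraries but present in both kinds of nuclei, and the division itself rests on a gene of the rule.

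Other contractile genes were shared by both kinds. The myosin light chain gene *Mlc1* stood at 7572, 7821, 5188 and 6062 CPM with *Scp1* and at 6560, 7092, 4179 and 6861 CPM without. The calcium pump gene *SERCA* was higher with *Scp1* in each library, by 2.37-fold to 2.81-fold, as was *Argk*, the arginine kinase that buffers ATP, by 1.50-fold to 1.66-fold. *Mhc*, *sls*, *bt* and *up* were higher in nuclei without *Scp1* in every library, which the rule itself favours, since a nucleus without *Scp1* had to reach 3 UMIs from the other 7 genes. Both kinds fell mostly in the authors' cluster 5 in the controls, with 145 of 213 nuclei with *Scp1* and 343 of 606 without.

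**Figure D2:**
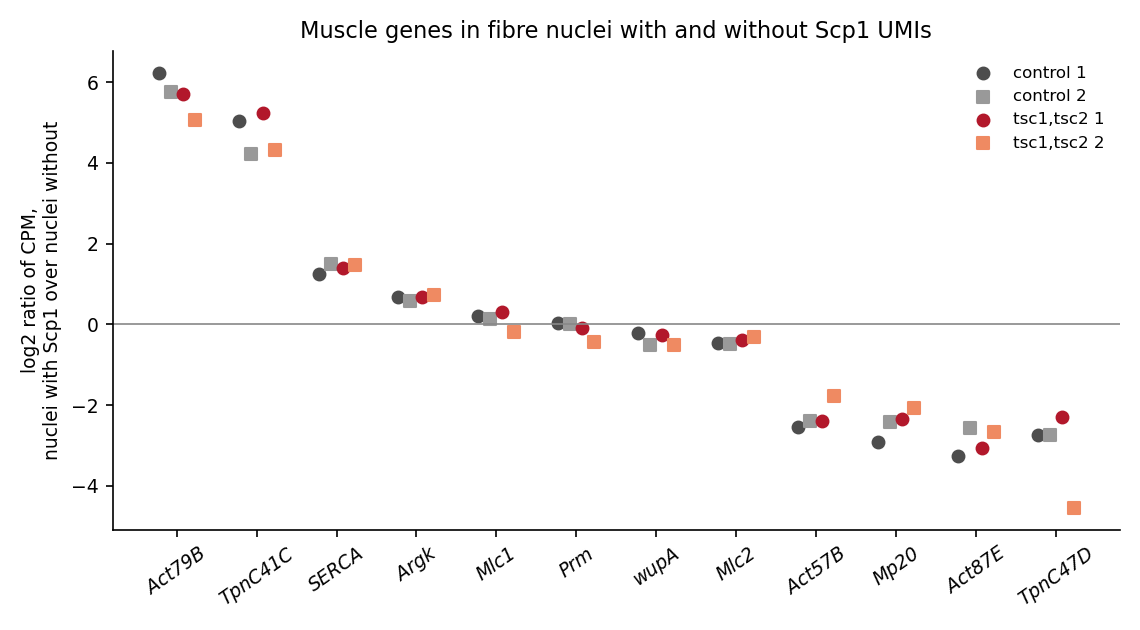
Log2 ratio of CPM in fibre nuclei with Scp1 UMIs over fibre nuclei without, for 12 muscle genes, with 1 point per library. Act79B and TpnC41C lie far above 0, Act57B, Mp20, Act87E and TpnC47D far below, and the 4 libraries keep the same order of these groups.

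Outside the rule, no gene passed the test between genotypes in muscle fibre nuclei. Of 3679 genes tested with edgeR's quasi-likelihood test on the summed counts, 0 (0.0%) had an adjusted p under 0.05, the smallest adjusted p being 0.072. At an unadjusted p under 0.05 there were 250 genes (6.8%), 114 higher (3.1%) and 136 lower (3.7%) in *oenots>tsc1,tsc2*. DESeq2, run on the same counts, called 23 of the 1682 genes for which it gave an adjusted p (1.37%), 6 higher (0.357%) and 17 lower (1.01%). Tested genes held a median of 66 UMIs over the 4 libraries, and the median half-width of the 95% interval of a fold change was 1.09 on the log2 scale, so changes of 2-fold and less were below what these libraries could show. In simulated counts with 200 changed genes of 3679, the test recovered 0% at a log2 change of 1, 48% at 2 and 82.5% at 3. False calls were 1 of 1, 10 of 106 and 7 of 172 calls in the same order.

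The contractile apparatus was level on the median. Of 31 sarcomere genes outside the rule 25 were tested, and their median log2 fold change was 0.00 against -0.00 for all 3679 genes. None of the 25 passed the test by edgeR, none by DESeq2, 1 was lower at an unadjusted p under 0.05 (3.7% of all tested genes were), 13 of the fold changes were positive and 12 negative. With tsc 1 left out the median was 0.33 and with tsc 2 left out -0.46, so the level median rests on 2 libraries that lay on opposite sides of the controls.

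*Mlc2*, the regulatory myosin light chain, stood at 10436, 13129, 11077 and 13160 CPM in control 1, control 2, tsc 1 and tsc 2, and the genotypes overlapped (log2 fold change 0.13, 95% interval -0.68 to 0.93). The LIM protein gene *Mlp60A* was at 8278, 11443, 6521 and 10310 CPM (-0.14, -1.01 to 0.73) and *Mf*, which encodes the thick filament protein myofilin, at 6108, 6928, 6036 and 11099 CPM (0.48, -0.42 to 1.38). For these 3 genes an overlap of the genotypes was seen, and the intervals still admit changes of up to 1.38 on the log2 scale. The troponin I gene *wupA* was at 6449, 7445, 5166 and 7939 CPM. The actins *Act57B* (5149, 6235, 4173 and 6840 CPM) and *Act87E* (1862, 3552, 1763 and 3686 CPM) overlapped between genotypes as well.

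*Act88F*, the actin of the fibrillar flight muscle, was the sarcomere gene with the lowest p, at 104 and 113 CPM in the controls and 40.4 and 47.8 CPM in *oenots>tsc1,tsc2* (log2 fold change -1.23 ± 0.463 (SE), edgeR adjusted p = 0.62). Of the other flight muscle genes *fln*, at 5, 2, 4 and 0 UMIs, and *TpnC4*, at 6, 9, 2 and 1 UMIs, were too low for the test, and *fln* overlapped between genotypes. *salm* and *bru1*, which encode a zinc finger factor and an RNA-binding protein that set the flight muscle type, were at 242, 227, 65.3 and 107 CPM (-1.39 ± 0.468, adjusted p = 0.52) and at 300, 277, 103 and 102 CPM (-1.41 ± 0.440, adjusted p = 0.42). Both libraries of *oenots>tsc1,tsc2* lay below both controls for *Act88F*, *TpnC4*, *salm* and *bru1*, as did 22.8% of all tested genes, and none passed the test. These genes were picked out after their values were seen. In all other nuclei *bru1* and *salm* stood higher than in fibre nuclei and were likewise lower in *oenots>tsc1,tsc2*, *bru1* at 1781, 2323, 1071 and 861 CPM and *salm* at 701, 533, 255 and 371 CPM. Nuclei of the oenocyte class held *salm* at 2974, 2191, 1201 and 1203 CPM, and the part of these nuclei in its level in fibre was not tested.

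Genes around the sarcomere did not pass the test. Of 12 tested genes of attachment and the dystrophin complex the median log2 fold change was 0.09, of 7 genes of the neuromuscular junction 0.06 and of 16 genes of calcium handling and excitation -0.11, with 1 gene in the 3 lists at an unadjusted p under 0.05, against 6.8% of all genes. The calcium median was 0.20 without tsc 1 and -0.49 without tsc 2, that of attachment 0.24 and -0.18, and that of the junction 0.41 and -0.24. The gene with the low p was *Ca-alpha1T*, a T-type calcium channel, at 204, 63.1, 21.8 and 11.9 CPM (-2.79 ± 0.681, edgeR adjusted p = 0.30). In all other nuclei *Ca-alpha1T* stood at 296, 371, 49.8 and 110 CPM and in the oenocyte class at 1201, 1516, 183 and 369 CPM. *Pax* (paxillin) was at 1371, 1753, 1204 and 1918 CPM and *SERCA* at 3095, 2825, 1885 and 2831 CPM, overlapping between genotypes. *SERCA* had a log2 fold change of -0.25 (-1.14 to 0.65) and *Pax* one of 0.08 (-0.85 to 1.02).

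Of 15 tested muscle transcription factors and RNA-binding proteins 14 had a negative fold change and 3 lay below both controls in both libraries (22.8% of all genes did), with a median of -0.31. *Pdp1*, a bZIP factor that activates muscle genes, was at 4508, 3641, 2416 and 3698 CPM (-0.33, -1.23 to 0.56) and the splicing factor gene *mbl* at 3500, 2724, 1928 and 2772 CPM (-0.32, -1.22 to 0.58). *Mef2*, the myogenic factor, was at 287, 315, 202 and 323 CPM (-0.13, -1.10 to 0.85). For all 3 the genotypes overlapped and tsc 1 was lowest, and the list's median was 0.05 without tsc 1.

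Energy metabolism of the fibre did not pass the test in any member either. The 24 tested genes of glycolysis and energy transfer had a median log2 fold change of 0.00 and the 67 nuclear genes of oxidative phosphorylation one of 0.12, with 0 genes of both lists at an unadjusted p under 0.05, against 6.8% of all genes, and 0 called by DESeq2. *Argk* was at 4441, 6075, 4111 and 6911 CPM (0.16, -0.75 to 1.06) and *ATPsynC*, a subunit of the ATP synthase ring, at 4058, 3922, 3710 and 3244 CPM (-0.12, -0.95 to 0.72). Summed over its 89 genes, oxidative phosphorylation took 40499, 40186, 37116 and 42639 CPM, within a narrow range in all libraries. All 11 tested transcripts of the mitochondrial genome had a negative fold change, with a median of -0.33 and 1 of 11 below both controls (22.8% of all genes). Their summed level was set apart by 1 control library, at 62404 CPM in control 1 against 30509 in control 2, 40718 in tsc 1 and 35309 in tsc 2, and *mt:CoI* (17331, 8875, 11737 and 12072 CPM) was highest there too. Without control 1 the median of these transcripts was 0.29.

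Cytosolic ribosomal protein genes, which encode the proteins of the ribosome, lay mostly above the controls in *oenots>tsc1,tsc2*, although no member passed the test by edgeR or DESeq2. Of 83 tested genes 81 had a positive fold change, with a median of 0.65 on the log2 scale, and in 56 of 83 both *oenots>tsc1,tsc2* libraries lay above both controls, against 14.7% of all tested genes. At an unadjusted p under 0.05, 9 were higher (3.1% of all genes) and 2 lower (3.7%). Summed over 92 genes the list took 98496 CPM in control 1, 99295 in control 2, 168207 in tsc 1 and 124380 in tsc 2, so the controls nearly coincided and both other libraries lay above them.

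*RpL27A* stood at 3545, 3746, 6310 and 4474 CPM (0.65, -0.21 to 1.50), *RpLP1* at 2704, 2993, 6599 and 3315 CPM (0.88, -0.06 to 1.82) and *RpS25* at 3820, 3906, 5175 and 3781 CPM (0.29, -0.55 to 1.14). The sum was higher in tsc 1 than in tsc 2, and the list's median was 0.41 without tsc 1 and 0.82 without tsc 2. In all other nuclei of the same libraries the sum was 51656, 48961, 103427 and 116874 CPM, and the median of the list there was 1.08. Proteasome genes lay the other way in fibre nuclei, with 25 of 29 negative, a median of -0.41, 11 of 29 below both controls (22.8% of all genes) and a sum of 3874, 4868, 3474 and 2371 CPM, while in all other nuclei their median was -0.01. The proteasome median in fibre nuclei was -0.91 without tsc 1 and -0.23 without tsc 2. *Prosbeta5* was at 246, 408, 224 and 137 CPM (-0.75, -1.78 to 0.28). The difference between fibre and other nuclei was not tested for these lists.

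**Figure D3:**
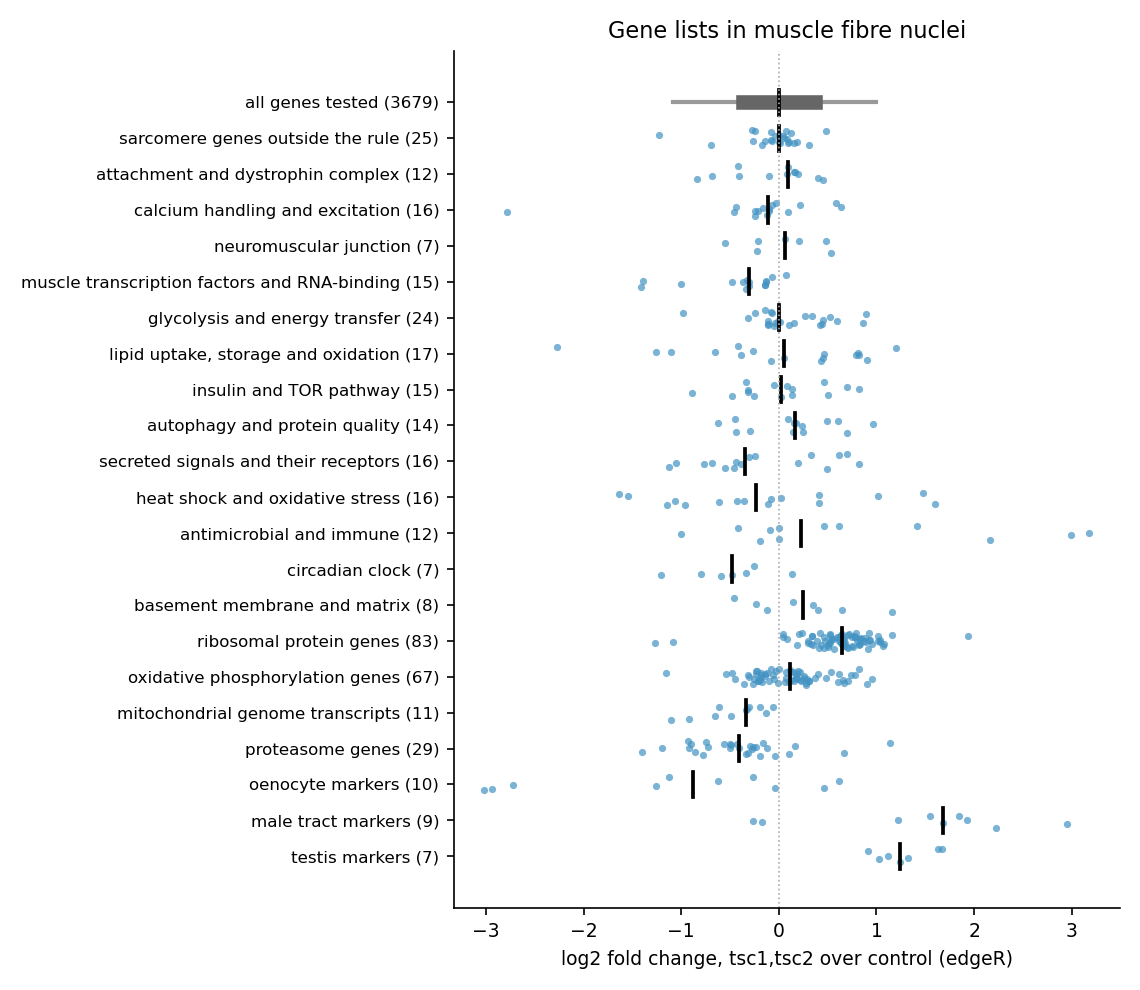
Log2 fold change of oenots>tsc1,tsc2 over control in muscle fibre nuclei for every tested gene of 18 gene lists and 3 marker lists (blue points, number tested in parentheses) with the median of each list as a black bar. The top row gives all 3679 genes by their median, quartiles (thick line) and 5th to 95th percentile (thin line). The ribosomal protein genes lie mostly to the right of 0, with a median of 0.65, and the sarcomere genes gather around 0.

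**Figure D4:**
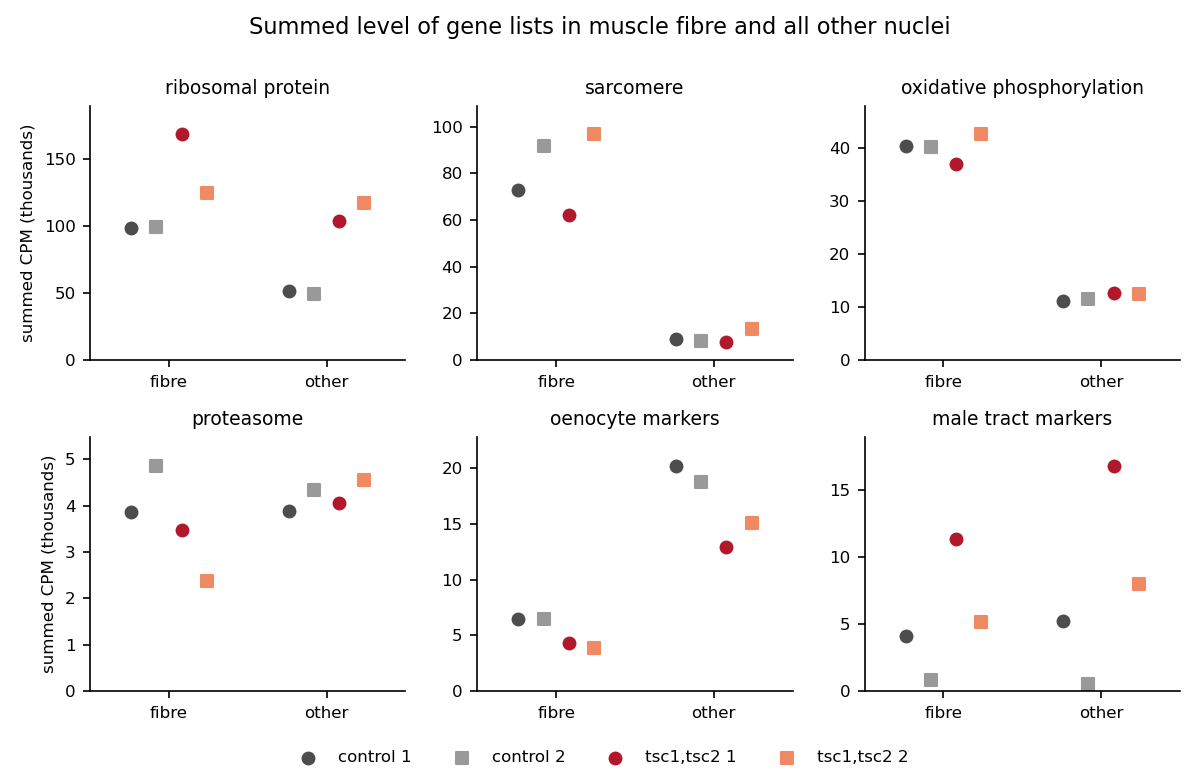
Summed CPM, on axes divided by 1000, of 6 lists in muscle fibre nuclei and in all other nuclei, with 1 point per library and axes that start at 0. Ribosomal protein genes are higher in both oenots>tsc1,tsc2 libraries in either class of nuclei, while the sarcomere sum in fibre nuclei is 62219 CPM in tsc 1 and 96669 CPM in tsc 2.

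Of 16 tested secreted signals and receptors 6 lay below both controls (22.8% of all genes) and 2 above (14.7%), with a median of -0.35. None passed the test by edgeR or DESeq2, and 1 had an unadjusted p under 0.05 (6.8% of all genes). That gene, *Egfr*, the receptor of EGF-like ligands, was at 237, 240, 124 and 77.7 CPM (-1.13, -2.12 to -0.14, edgeR adjusted p = 0.68), and it is also on the list of adipose markers. *Pvf1* was at 29.2, 67.3, 46.6 and 59.7 CPM, from 7 to 16 UMIs per library, with a log2 fold change of 0.19 (-0.98 to 1.37), and in all other nuclei it stood at 41.4, 39.1, 54.8 and 59.3 CPM. *Pvf3* was at 62.5, 33.6, 15.5 and 59.7 CPM (-0.44, -2.01 to 1.13), and *Pvf2*, too low for the test, at 12.5, 25.2, 37.3 and 71.7 CPM. Changes of 2-fold in these ligands were not detectable at this depth. The receptor gene *Pvr* was at 91.7, 109, 106 and 191 CPM (0.62, -0.44 to 1.68).

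Of 15 tested insulin and TOR pathway genes 0 passed the test by edgeR or DESeq2 and 0 had an unadjusted p under 0.05, with a median of 0.02. *Thor*, the translation inhibitor 4E-BP that TOR phosphorylates and FOXO induces, stood at 1033, 706, 2031 and 651 CPM, high in tsc 1 alone (0.70, -0.47 to 1.87). *foxo* was at 362, 420, 149 and 442 CPM (-0.34, -1.50 to 0.82) and *Myc* at 454, 441, 358 and 573 CPM (0.13, -0.84 to 1.10). *ImpL2*, a secreted protein that binds insulin-like peptides, was at 292, 193, 423 and 388 CPM, both *oenots>tsc1,tsc2* libraries above both controls (0.82, -0.15 to 1.79, adjusted p = 0.80). In all other nuclei *ImpL2* was at 807, 965, 2086 and 3069 CPM and in the oenocyte class at 2395, 3346, 6680 and 8482 CPM, and the part of that RNA in the fibre values was not tested. The driver's own transcript *gal4* was found in fibre nuclei with 6, 16, 10 and 4 UMIs, at most 67.3 CPM, against 170 to 330 CPM in nuclei of the oenocyte class.

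Among 14 tested autophagy and protein quality genes the median was 0.16. *Atg8a* was at 737, 858, 840 and 818 CPM (0.14, -0.76 to 1.04), nearly the same in all 4 libraries. *ref(2)P*, the p62 adaptor that autophagy consumes, was at 250, 319, 600 and 448 CPM (0.97, 0.01 to 1.92, adjusted p = 0.72), above both controls, and stood in all other nuclei at 255, 338, 996 and 1964 CPM. Lipid genes of the fibre had a median of 0.05 over 17 tested, with *FASN1*, a fatty acid synthase, at 971, 618, 1390 and 1260 CPM (0.82, -0.13 to 1.76). Its level in nuclei of the adipose class was 5395, 4130, 6788 and 12377 CPM. Of the list, 3 genes had an unadjusted p under 0.05 (6.8% of all genes). The lipoprotein receptor gene *LpR1* was at 371, 160, 68.4 and 29.9 CPM (-2.27, -3.54 to -1.01) and *FASN2*, a fatty acid synthase of oenocytes, at 658, 921, 255 and 370 CPM (-1.26, -2.24 to -0.27), both below both controls. *Lsd-1*, a perilipin of lipid droplets and an adipose marker, was at 150, 88.3, 252 and 269 CPM (1.20, 0.19 to 2.21), above both controls. *LpR1* and *Lsd-1* were chosen after their values were seen, and none of the 3 passed the test. The clock gene *Clk* was at 450, 282, 103 and 203 CPM (-1.21, -2.31 to -0.11, edgeR adjusted p = 0.72), below both controls (22.8% of all tested genes were). In all other nuclei *Clk* stood at 1676, 1576, 747 and 837 CPM and in the oenocyte class at 5006.5, 4096, 1044 and 1445 CPM. The part of that RNA in the fibre values was not tested.

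In the stress list 6 of 16 tested genes lay below both controls (22.8% of all genes) and 2 above (14.7%), with a median of -0.23 that turned to 0.27 without control 2. At an unadjusted edgeR p under 0.05, 1 was higher (3.1% of all genes) and 3 lower (3.7%). The higher gene was *Hsp60A* (log2 fold change 1.48), and the lower ones were *TotA* (-1.55), *Cat* and *Sod1*. *Hsp60A* and *TotA* were named after their values were seen. *Cat* (catalase) was among the genes DESeq2 called, at 1596, 1972, 706 and 370 CPM (edgeR log2 fold change -1.64 ± 0.459, adjusted p = 0.40), and *Sod1* was at 1371, 2060, 989 and 663 CPM (-0.97 ± 0.437, adjusted p = 0.72). Both enzymes remove reactive oxygen, and for both the libraries of the 2 genotypes did not overlap. In the oenocyte class *Cat* stood at 6193.5, 7213, 3274 and 4912 CPM and *Sod1* at 2426, 3489, 1739 and 2587 CPM. The part of that RNA in the fibre values was not tested. Other oxidative stress genes of the list had log2 fold changes of 0.02 (*Sod2*), -0.11 (*Prx3*), -0.08 (*cnc*) and -1.14 (*Keap1*), and were named after their values were seen. The small heat shock protein gene *l(2)efl* was at 2704, 2976, 2730 and 4414 CPM (0.42, -0.48 to 1.32) and *GstD1* at 1704, 2325, 2124 and 2927 CPM (0.41, -0.49 to 1.31).

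Of the antimicrobial genes *Drs* and *Listericin* were high in 1 library, and the list's median of 0.23 turned to -0.31 without tsc 1. At an unadjusted edgeR p under 0.05, 3 of the 12 tested were higher (3.1% of all genes) and 0 lower (3.7%). These were *Drs*, *Listericin* and *blanks*. *blanks*, named after its value was seen, had a log2 fold change of 2.99 (edgeR adjusted p = 0.30) at a mean of 36.35 CPM. *Drs*, which encodes the antifungal peptide drosomycin, was at 37.5 and 46.2 CPM in the controls, 641 in tsc 1 and 71.7 in tsc 2 (3.18 ± 0.819, adjusted p = 0.30), and 70 of its 206 UMIs in tsc 1 came from 1 nucleus. *Listericin*, with 12 UMIs in control 1, was at 54.7 CPM in control 2, 358 in tsc 1 and 77.7 in tsc 2 (2.17 ± 0.649, adjusted p = 0.40). In all other nuclei of tsc 1 they stood at 174 and 226 CPM, against 25.2 to 69.3 CPM in the controls. *Drsl4*, of the drosomycin family, was at 1325, 816, 361 and 657 CPM, below both controls (95% interval of the log2 fold change -2.05 to 0.06). It is also an epidermis marker. The 16 epidermis markers, 2 of them at 0, summed to 15856, 15067, 12209 and 13536 CPM in fibre nuclei. Of 12 tested, 6 lay below both controls (22.8% of all tested genes did). In all other nuclei the sum was 12791, 8562, 10259 and 18216 CPM. The part of epidermal RNA in *Drsl4* was not tested.

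The 3 genes with the smallest p, *Sgp*, *FASN3* and *geko*, were lower in *oenots>tsc1,tsc2*, followed by *kraken*, which was higher. *Sgp* (2L:8519690-8521809, plus strand, Release 6) stood at 1837 and 1833 CPM in the controls and at 187 and 71.7 CPM in tsc 1 and tsc 2, a log2 fold change of -3.71 ± 0.537 (edgeR adjusted p = 0.072, n = 2 libraries each). *FASN3*, an oenocyte fatty acid synthase (3L:25752859-25762779, minus strand), was at 1408, 1829, 124 and 257 CPM (-3.02 ± 0.509, adjusted p = 0.15). *geko* was at 325, 492, 65.3 and 29.9 CPM (-2.93 ± 0.527, adjusted p = 0.17). Each lay lower in both *oenots>tsc1,tsc2* libraries than in both controls, by a wide margin.

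Of the 17 lower genes that DESeq2 called, 12 stood at least 2 times higher in control nuclei of the oenocyte class (nuclei with the most UMIs of 6 oenocyte markers) than in control fibre nuclei. The share of all tested genes that did so is not given here, so this count is a description only. Of these, *FASN3* and *geko* are themselves among the 6 markers, so their place there was set by the definition. *mtgo*, at 1100, 744, 177 and 233 CPM in fibre nuclei, stood at 13983, 14414, 1871 and 1782 CPM in oenocyte-class nuclei. *FarO*, a fatty acyl-CoA reductase of oenocytes, was at 221, 231, 49.8 and 5.97 CPM in fibre nuclei and at 1248, 1354, 194 and 148 CPM in the oenocyte class. *Sgp* stood at 9629, 11928, 376 and 186 CPM in the oenocyte class, lower in both *oenots>tsc1,tsc2* libraries there as well. *CG16904*, *CG10237*, *CG17560*, *CG30008*, *Lectin-galC1* and *CG4666* completed the group with *Cat*.

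The level of these transcripts in control fibre nuclei was 6.49% (*mtgo*) to 35.8% (*Lectin-galC1*) of that in the oenocyte class. *FASN3* UMIs were present in 9.93% and 7.83% of control fibre nuclei, against 2.25% and 1.31% of control nuclei of the adipose class, and in 2.58% and 5.02% of fibre nuclei of *oenots>tsc1,tsc2*. Thinned to 200 UMIs, the shares in control fibre nuclei were 9.22% and 7.58%, against 1.93% and 1.24%. Adipose-class nuclei had to hold fewer UMIs of the 6 oenocyte markers, *FASN3* among them, than of *apolpp*, while fibre nuclei had no such limit. The lower adipose share is thus partly set by the definition. Over the whole list of 11 oenocyte markers the summed level in fibre nuclei was 6516 and 6504 CPM in the controls and 4348 and 3835 CPM in *oenots>tsc1,tsc2*, with 1 marker at 0, while in all other nuclei it was 20239, 18724, 12936 and 15040 CPM. When fibre nuclei with a UMI of 6 oenocyte markers were left out, *Sgp* had a log2 fold change of -3.34 and *CG10237* one of -2.12, while *mtgo* went to 0.58. The part of oenocyte RNA in these differences was not tested.

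By the mean of the controls, *CG31205* (3.07-fold), *Nplp3* (2.62-fold) and *Pzl* (1.71-fold) stood higher in fibre nuclei than in all other nuclei. *Mal-A6* (1.15-fold), *Lectin-galC1* (1.06-fold) and *CG4666* (1.03-fold) were nearly level. *Lectin-galC1* lay lower in fibre nuclei in control 1 (346 against 420 CPM) and *CG4666* in control 2 (425 against 461.5 CPM). *CG31205* (3R:20731631-20732707, plus strand) was at 467 and 538 CPM in control fibre nuclei and 68.4 and 131 CPM in *oenots>tsc1,tsc2* (-2.28 ± 0.493, adjusted p = 0.21), against 171, 156, 61.9 and 87.4 CPM in all other nuclei. In control 2, 66 of its 128 UMIs came from 1 nucleus. *Nplp3*, a neuropeptide-like precursor, was at 941, 496, 218 and 77.7 CPM (-2.17 ± 0.565, adjusted p = 0.31). Of its UMIs, 55 of 226 in control 1 and 33 of 118 in control 2 came from 1 nucleus of each library.

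*Pzl*, a Piezo-like channel gene (3R:2554162-3263582, minus strand), was at 246, 126, 28.0 and 17.9 CPM in fibre nuclei (-2.86 ± 0.579, adjusted p = 0.19) and nearly level at 112, 105, 125 and 79.6 CPM in all other nuclei. Its counts were small, 59, 30, 9 and 3 UMIs, and 28 of the 59 in control 1 came from 1 nucleus. The maltase gene *Mal-A6* was at 246, 84.1 and 18.7 CPM in the first 3 libraries, with 0 UMIs in tsc 2. All 17 genes lay below both controls in both libraries (22.8% of all tested genes did). All had the same sign in all other nuclei, and the share of all tested genes that kept their sign is not given here.

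**Figure D5:**
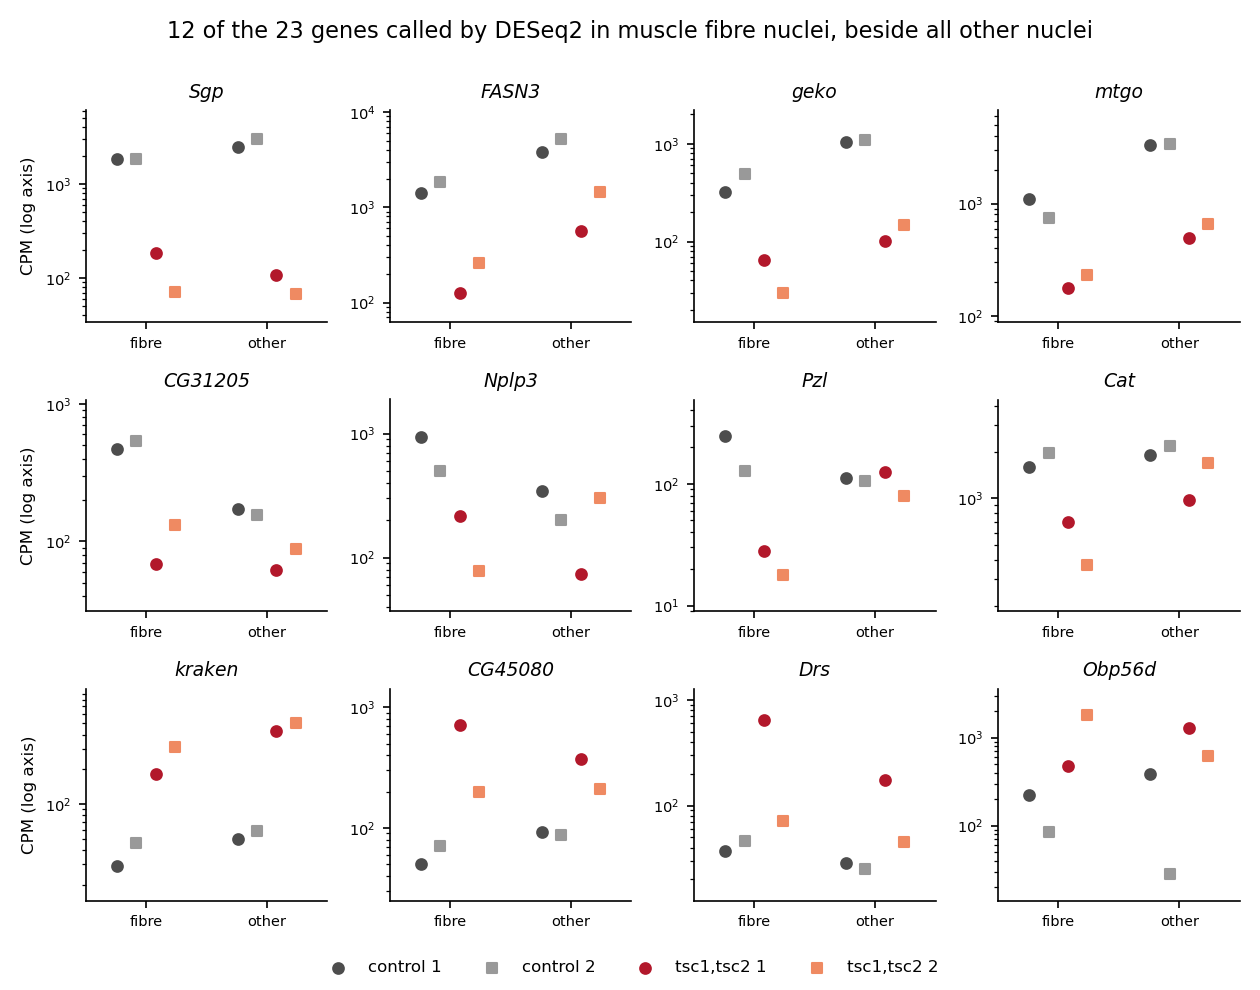
CPM on a log axis of 12 of the 23 genes that DESeq2 called, in muscle fibre nuclei and in all other nuclei of the same 4 libraries. Sgp, FASN3, geko and mtgo are lower in both red libraries in both classes of nuclei, while Pzl, at 28.0 and 17.9 CPM in the red libraries of fibre nuclei, overlaps between genotypes in all other nuclei.

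The 6 genes that DESeq2 called higher were *kraken*, *CG45080*, *Obp56d*, *EbpIII*, *Acp54A1* and *Drs*. *kraken*, a hydrolase gene, was at 29.2, 46.2, 184 and 311 CPM (2.77 ± 0.529, edgeR adjusted p = 0.18), and in all other nuclei it stood at 49.4, 58.3, 428 and 499 CPM. Of the 52 *kraken* UMIs in fibre nuclei of tsc 2, 21 came from 1 nucleus. *CG45080* had 12, 17, 229 and 33 UMIs (2.99 ± 0.628, adjusted p = 0.21), of which 121 in tsc 1 came from 1 nucleus. Both lay above both controls.

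*Obp56d*, *EbpIII* and *Acp54A1* are genes of the male tract. In tsc 2, 1 nucleus of 2515 UMIs with 17 muscle UMIs held 293 of 301 *Obp56d* UMIs and 266 of 473 *EbpIII* UMIs. Without it *Obp56d* was at 48.5 CPM in tsc 2 in place of 1798 CPM, below the other libraries (225, 84.1 and 476 CPM), and *EbpIII* at 1255 CPM in place of 2825 CPM, above the controls at 862 and 731 CPM. *Acp54A1* was at 62.5, 8.41, 171 and 424 CPM. Of its UMIs, 26 of 55 in tsc 1 and 36 of 71 in tsc 2 came from 1 nucleus of each library. Over 16 male tract markers, none at 0, the summed level in fibre nuclei was 4095, 853, 11326 and 5137 CPM, and in all other nuclei 5257, 502, 16842 and 7964 CPM. The median of the tested male tract markers was 1.68, and -1.80 without tsc 1. Testis markers summed to 333, 420, 1001 and 741 CPM in fibre nuclei, with 7 of 7 tested positive and 6 of 7 above both controls (14.7% of all genes). The part of these transcripts in the other differences was not tested.

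Genotype effects in fibre nuclei were set against those in all other nuclei of the same libraries, with the library as a block. The other nuclei differed in make-up between libraries. Of all nuclei, the adipose class made up 48.8%, 54.1%, 40.1% and 32.2%, and the oenocyte class 20.7%, 20.6%, 17.6% and 30.2%. The block does not remove these differences, and their part in the interaction was not tested. Of 7981 genes tested, 10 (0.125%) differed at an adjusted p under 0.05 by edgeR and 0 by DESeq2, and 441 (5.53%) had an unadjusted edgeR p under 0.05. Of the 10, *Pzl* alone was lower in fibre nuclei at an unadjusted p under 0.05 (interaction -2.82 on the log2 scale, 95% interval -4.03 to -1.61, edgeR adjusted p = 0.037). *Sgp* (interaction 1.14, 95% interval 0.175 to 2.11, adjusted p = 0.77), *FASN3* (-0.82, -1.725 to 0.08, 0.89) and *mtgo* (0.45, -0.47 to 1.37, 0.95) did not pass this test. Its simulation changed genes drawn at random, whatever their counts. It recovered 0.5% of log2 differences of 1 and 34% of differences of 2, with 5 false calls among 73 at 2. Most differences of these sizes between fibre and other nuclei would thus be missed.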

How the data were processed

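The authors counted UMIs per gene and nucleus with Cell Ranger 3.1.0 against unspliced transcripts, took out free RNA by SoupX with 1 set fraction, removed nuclei of extreme totals and clustered the rest in Seurat 3.1.2. The deposited counts are whole numbers for 13955 genes, neither scaled nor corrected between libraries, and hold 254 to 3006 UMIs per nucleus. No doublet caller was run. The authors' cluster numbers (a deposited label) were used for control nuclei only.

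Counts were summed per library over muscle fibre nuclei and tested by edgeR 4.0.16 under R 4.3.3 (quasi-likelihood, TMM, its default filter, Benjamini-Hochberg, threshold 0.05) and, as an alternative, DESeq2 1.42.0. Standard errors were derived from the F statistic. Nuclei are not replicates. The members, gene lists and tests were chosen with earlier results of these data known. The text was to name the genes edgeR called with libraries that do not overlap, overall and per list (there were 0), the rule's genes, *Pvf1*, *Pvf2*, *Pvf3*, *Pvr*, *Thor*, *foxo*, *Mef2* and *gal4* whatever their result, and up to 4 most abundant members of a described list. The genes DESeq2 or the interaction called, and those marked as such, were chosen after their values were seen. Scripts were tested on simulated data. Coordinates follow Release 6. *mtgo*, *Lectin-galC1*, *CG10237*, *FarO*, *CG30008* and *CG16926* overlap other counted genes, and no source used here says whether reads were assigned by strand.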

Additional observations from a re-analysis of the deposited data

Results flagged for a closer look

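In 10 genes the genotype effect in muscle fibre nuclei differed from that in all other nuclei by edgeR's interaction test (adjusted p from 0.021 to 0.043), with 2 libraries per genotype. DESeq2 called none of them and neither did the fit without the library as a block. The make-up of the other nuclei differed between libraries, and its part in these differences was not tested. *Pzl* differed by -2.82 on the log2 scale, lower in both *oenots>tsc1,tsc2* libraries in fibre nuclei. *CG5612* differed by -2.48, with 83.3, 109, 264 and 137 CPM in fibre nuclei and 8.95, 8.95, 86.0 and 142 CPM in other nuclei. Of its 85 UMIs in fibre nuclei of tsc 1, 50 came from 1 nucleus. *Dup99B*, which encodes a peptide of the ejaculatory duct, differed by -3.13 and *CG12268* by -2.56, both with 3 UMIs in fibre nuclei of tsc 2. In tsc 1, 23 of the 47 *CG12268* UMIs of fibre nuclei came from 1 nucleus. *CG30334* differed by -2.87 and *CG31157* by -2.97, each with 0 UMIs in tsc 2. *twi* differed by -2.70, with 7 to 14 UMIs per library in fibre nuclei and 14.2, 13.0, 156 and 58.5 CPM in the others. *AdamTS-A* differed by 2.20, *Tina-1* by 2.32 and *Ugt36D1* by 2.23, each lower in both *oenots>tsc1,tsc2* libraries in other nuclei and overlapping or slightly higher in fibre nuclei.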

How the results depend on the processing

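The counts of genes called depended on the test and on each library. Against 0 higher and 0 lower in edgeR, DESeq2 called 6 and 17, a filter of 10 counts in every library 4 and 11, nuclei chosen after thinning to 200 UMIs 1 and 6, and a rule that also put muscle UMIs above 6 oenocyte markers 0 and 1 (*Sgp*). The replicate number as a replicate block gave 3 and 17. The numbers were not shown to pair the libraries, since there are only 2 pairs (correlation of same-numbered deviations 0.24 over 2172 genes). Library totals alone, no filter, at least 5 muscle UMIs, cuticle genes and *apolpp* added together, rule genes left out of the totals and, chosen after seeing the data, at least 10 muscle UMIs or no oenocyte UMI left 0 calls. Leaving out 1 library gave 6 to 54 higher and 7 to 94 lower: 30 and 7 without control 1, 6 and 17 without control 2, 35 and 94 without tsc 1, 54 and 23 without tsc 2. In these fits the lone library is assumed to vary like the other group. Interaction calls went from 10 to 0 (DESeq2, and no library block), 19 (totals alone) and 2 to 42 without 1 library (2 without control 1, 6 without control 2, 42 without tsc 1, 8 without tsc 2).

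The log2 ratio of the fibre share (0.67) ranged from 0.30 to 0.97 without 1 library, that of the rule genes (-0.20) from -0.73 to 0.19, the sarcomere median (0.00) from -0.46 to 0.33 and the ribosomal protein median (0.65) from 0.41 to 0.82. Single genes changed sign in *Mef2* (0.062) and *Obp56d* (-1.27) after thinning, *mtgo* (0.58) without oenocyte UMIs, *Pax* (-0.004) with totals alone and *Myc* with at least 10 muscle UMIs (-0.021), above oenocyte markers (-0.14) and without oenocyte UMIs (-0.37). Without 1 library the log2 fold change ranged from -0.26 to 0.87 for *Pvf1*, -1.54 to 0.42 for *Pvf3*, -0.30 to 1.29 for *Thor*, -1.32 to 0.29 for *foxo*, -0.51 to 0.22 for *Mef2*, -0.018 to 0.28 for *Mlc2*, -0.52 to 0.19 for *Mlp60A*, -0.041 to 0.89 for *Mf*, -0.30 to 0.42 for *Pax*, -0.58 to 0.053 for *SERCA*, -0.28 to 0.52 for *Argk* and -0.26 to 0.47 for *Myc*, and the interaction of *Dup99B* from -5.50 to 0.93. With totals alone all tested genes had a median of -0.08.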
